A study of Arabidopsis thaliana with 8 samples.

Results

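Heat shock and DnaJ chaperone genes were examined in shoots of Arabidopsis thaliana seedlings whose root had been wounded. Members were taken as every gene probe whose description on the array held the words heat shock, heat-shock or DnaJ, which gave 116 of the 21500 genes. Of these, 110 were bright enough to be tested, and the other 6, of which 4 were DnaJ genes and 2 heat shock factor genes, were too dim. By their descriptions and RefSeq names (assembly TAIR10.1), the 116 were 22 heat shock transcription factor (HSF) genes, 15 small heat shock protein genes, 10 HSP70 genes, 7 HSP90 genes, 3 HSP100 genes, 37 DnaJ genes and 22 described only as heat shock proteins, here called unclassed. The descriptions are those of the array's design and can be old, and all members were found in RefSeq by locus code. A group therefore need not match a gene family. AT1G12800 and AT5G53640, for example, are counted as HSF genes by their descriptions and carry no HSF symbol. The unclassed genes can include members of the families of the other groups, and this was not tested.

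Heat shock proteins are molecular chaperones. HSP70 proteins bind unfolded stretches of other proteins with the help of DnaJ (J-domain) partners, HSP90 proteins act on partly folded clients, small heat shock proteins hold unfolding proteins until they can be refolded, and HSP101 pulls proteins out of aggregates. In plants, most of the inducible members are driven by HSFs, of which the HSFA1 type is present before stress and HSFA2 is itself made during stress.

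Seedlings of the wild-type accession Columbia-0 were grown for 13 days on agar with 3% sucrose at 22 °C, with 16 h of light a day. In the treated group the primary root was cut with a razor blade 5 mm below the shoot base, and the shoots were collected 30 or 360 min later. The control groups were shoots of seedlings of the same time without a wound, so each time had its own control RNA. For each time there were 2 biological replicates, each hybridised on a pair of 2-colour Agilent arrays with the dyes exchanged, which makes 8 arrays in all. The number of seedlings behind a sample is not given in the sources used here. Values below are log2 ratios of wounded over control shoots, with the 2 arrays of a pair averaged to 1 replicate, and a gene was called changed at a Benjamini-Hochberg adjusted p under 0.05 over all genes tested with limma.

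The median red signal per array was 184 to 271 at 30 min and 323 to 431 at 360 min, so the earlier arrays were the dimmer ones. All 6 shoot marker genes were well above background on every array. Of the 8 root marker genes, 6 were so on all 4 wounded and 5 on all 4 control measurements at 30 min. At 360 min these numbers were 7 and 8, so most root markers were detected in the shoot samples. The summed level of 8 root marker genes was 1958 to 2897 over the 4 conditions, against 142937 to 176027 for the shoot markers. No root marker passed the limma threshold at either time, and the number at an unadjusted p under 0.05 was also 0. Of the shoot markers, 0 passed at 30 min, also at an unadjusted p under 0.05. At 360 min LHB1B1 (0.54, adjusted p = 0.0096 in limma) and RBCS1A (0.26, adjusted p = 0.0291) rose and RCA (-0.29, adjusted p = 0.0312) fell. Among all genes 3.08% rose and 4.22% fell. Each of these named markers had saturated spots at 360 min, so the sizes are uncertain. Both arrays of replicate 1 at 360 min stood apart in the spots that the scanner software marks as outliers: they held 816 and 888 among the gene spots, against 158 and 105 for replicate 2 of that time and 13 to 159 at 30 min.

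At 30 min, few chaperone genes differed between wounded and unwounded shoots. Of 110 members, 4 rose, where 4.52% of all 19177 genes did, and 2 fell, where 2.16% did. The members' median log2 ratio was 0.01, and that of all genes was -0.00. Those that rose were the HSF genes HSFA8, HSFB2A and HSFA3 and the DnaJ gene AT1G76700, and those that fell were the DnaJ genes J11 and J20. At an unadjusted p under 0.05, 13 members differed. Without replicate 1 of 30 min 0 members rose and 2 fell, and without replicate 2 of that time 1 rose and 1 fell.

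J11 (AT4G36040), a gene for a small J-domain protein of the chloroplast, had the largest change of any called member at 30 min. Its log2 ratio was -1.07 in replicate 1 and -1.06 in replicate 2, so wounded shoots held 2.09-fold less (SE 0.04 on the log2 scale, adjusted p = 0.000235 in limma). J20 (AT4G13830), whose J protein brings misfolded enzymes to HSP70 in the chloroplast, had ratios of -0.45 and -0.74 (1.51-fold lower, adjusted p = 0.00813). At 360 min neither differed: the ratios of J11 were -0.04 and -0.15, and those of J20 were 0.15 and 0.11. The control levels of both genes were themselves lower at 360 than at 30 min, though not past the threshold under several alternatives. The log2 level of J11 in unwounded shoots was 9.47 and 8.99 at 30 min and 7.41 and 8.08 at 360 min, and that of J20 was 9.59 and 9.59 against 8.42 and 8.49. In wounded shoots of 30 min, J11 stood at 8.40 and 7.93. These levels lay below both controls of the same time.

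Among the HSF genes, HSFA8 (AT1G67970) had log2 ratios of 0.55 and 0.35 at 30 min (1.37-fold, adjusted p = 0.00852). HSFA3 (AT5G03720), a factor that acts downstream of DREB2A in heat stress, had 0.25 and 0.23 (1.18-fold, adjusted p = 0.0337). HSFB2A (AT5G62020), of class B, whose members lack the activation domain of class A, had 0.42 and 0.40 (1.33-fold, adjusted p = 0.0291). All these replicates were above 0. HSF4 (AT4G36990), the class B factor also called HSFB1, had higher ratios, 0.55 and 0.59, but missed the threshold (adjusted p = 0.126). HSF1 (AT4G17750), the class A factor also called HSFA1A, stood at 0.05 and -0.06. The highest ratio of any member at 30 min was that of the unclassed AT1G54050, with 0.62 and 0.59 (1.52-fold), which missed the threshold (adjusted p = 0.0617) but passed under 8 of 15 alternatives. Over all 15 its adjusted p was 0.000316 to 0.5005. No small heat shock protein, HSP70, HSP90, HSP100 or unclassed gene passed the limma threshold at 30 min, and 2 of these members, 1 of 15 small heat shock protein genes and 1 of 22 unclassed genes, had an unadjusted p under 0.05. With 30 min fitted alone AT1G54050 rose, and 1 small heat shock protein gene, AT2G19310, named after its values were seen, fell.

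At 360 min, each of the 7 groups held genes that were more abundant in shoots of wounded seedlings, but in none of the groups did most members pass the threshold. Of 110 members 29 rose, 26.4%, where 3.08% of all 19146 genes tested did, and 3 fell, where 4.22% did. Of the small heat shock protein genes 7 of 15 rose, of the HSP70 genes 4 of 10 and of the HSP90 genes 3 of 7, as did 5 of 20 HSF genes, 1 of 3 HSP100 genes, 4 of 33 DnaJ genes and 5 of 22 unclassed genes. The DnaJ group also had 2 that fell, and the unclassed group 1. The median log2 ratio was 0.90 for the small heat shock protein genes, 0.27 for HSP70 and 0.10 for HSP90, and between -0.01 and 0.06 for the other groups, against 0.05 for all members and 0.00 for all genes. These medians differed between the replicates: replicate 1 had 1.32 for small heat shock protein genes, 0.42 for HSP70 and 0.16 for HSP90, and replicate 2 had 0.50, 0.10 and 0.04.

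**Figure D1:**
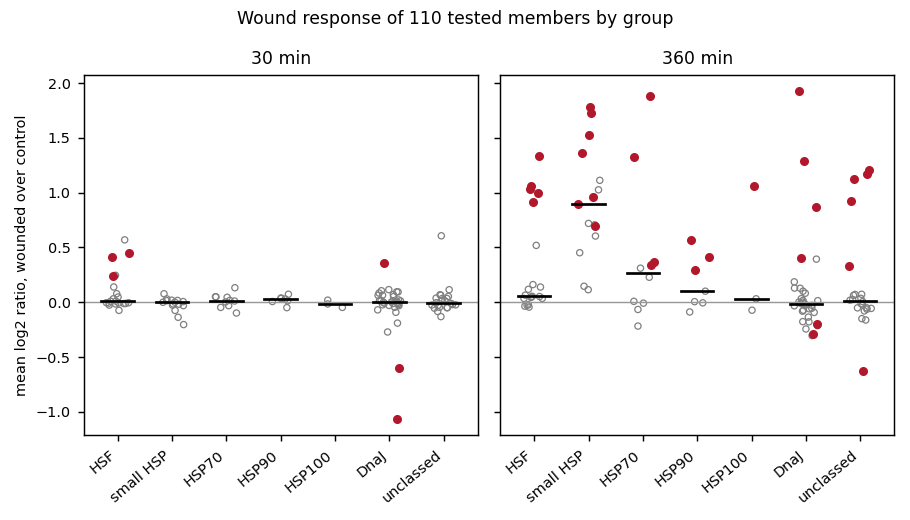
Mean log2 ratio of wounded over control shoots for each of the 110 tested members, by group, at 30 and 360 min. Filled points passed the threshold, open points did not, and bars are group medians. At 30 min nearly all members lie close to 0, and at 360 min the median of the small heat shock protein genes is 0.90.

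The number of calls at 360 min depended on how the spread was estimated and on which ratios were used. The share of all genes called under each setting is not set beside these counts. They therefore do not show whether the members or all genes moved. In the main fit, the replicates of 30 min and 360 min shared an estimate of the spread. On the authors' deposited log ratios, fitted with a shared estimate as well, 7 members passed. With 360 min fitted alone only 4 passed, AT1G71000, HSFA2, HSFA7A and AT2G20560. Leaving out either replicate of 30 min also gave 4. Leaving out replicate 1 of 360 min gave 28 that rose and leaving out replicate 2 gave 37.

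The 5 HSF genes that rose at 360 min were HSFA2, HSF4, HSFB2A, HSFA7A and AT-HSFA7B, of which the last pair was chosen for naming after its values were seen. HSFA2 (AT2G26150) had log2 ratios of 1.46 and 1.20, after 0.04 and 0.03 at 30 min. That is a 2.52-fold higher level (SE 0.07, adjusted p = 0.00195), and its wounded levels of 12.81 and 12.48 lay above its control levels of 11.34 and 11.28. HSF4 had 1.42 and 0.70 (2.08-fold, adjusted p = 0.0227). HSFB2A had 0.89 and 1.18 (2.05-fold, adjusted p = 0.00484), which made it the only member to rise at both times. HSFA7A (AT3G51910) had 1.07 and 0.94 (2.00-fold, adjusted p = 0.00176). The value of AT-HSFA7B (AT3G63350) rests on 1 replicate, at 0.92, because a spot of the other pair was an outlier. With 1 value at 360 min, the p of this gene rests on the spread at 30 min and on the prior that limma takes from all genes, and the same holds for MTHSC70-2 and AT4G21870, the other calls of this kind. The other 15 tested HSF genes were not called, and HSF1, at 0.05 and 0.02, was among them. AT5G53640, counted in the group by its array description as HSF30-like, was the lowest, with a mean of -0.04.

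Every one of the 15 genes grouped by name as small heat shock protein genes had a mean log2 ratio above 0 at 360 min. The means ran from 0.11 for AT5G20970, measured in 1 replicate, to 1.78. Unclassed genes of the same family, if any, are not covered by this. The highest was AT1G52560, described as chloroplast-localized, with 2.29 and 1.27 (3.43-fold, SE 0.22, adjusted p = 0.015). At 30 min it was not well above background in wounded or control shoots. ATHSP22.0 (AT4G10250), the small heat shock protein of the endoplasmic reticulum, had 2.31 and 1.14 (3.30-fold, adjusted p = 0.0216). HSP18.2 (AT5G59720), of the cytosolic class I, had 2.08 and 0.97 (2.88-fold, adjusted p = 0.0257). AT5G37670, described as of low molecular weight, had 1.80 and 0.93 (2.57-fold, adjusted p = 0.0191). In each of these genes replicate 1 was clearly the larger. HSP21 (AT4G27670), the small heat shock protein of chloroplasts, and the cytosolic HSP17.6A (AT5G12030) rose less, with 1.35 and 0.57 for HSP21 (adjusted p = 0.0343) and 1.29 and 0.50 for HSP17.6A (adjusted p = 0.0399). The group also held genes with ratios above 1 that were not called: AT1G53540 had 1.70 and 0.52 (mean 1.11, adjusted p = 0.0629), and the mitochondrial HSP23.6-MITO (AT4G25200) had 1.59 and 0.47 (mean 1.03, adjusted p = 0.0683). With 360 min fitted alone, or on the authors' deposited log ratios, none of the 15 passed, although the group's median of 0.90 was the same alone and was 0.96 on the deposited ratios. HSP17.6A and AT5G12020, which neighbour each other in the annotation, had means of 0.90 and 0.72.

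Among the HSP70 genes, Hsp70b (AT1G16030) and HSP70T-2 (AT2G32120) had the largest ratios. Hsp70b had 2.57 and 1.19 (3.68-fold, SE 0.30, adjusted p = 0.0259) and HSP70T-2 had 1.68 and 0.97 (2.50-fold, adjusted p = 0.0133). AT3G09440 and MTHSC70-2 (AT5G09590), named here because they complete the 4 that rose, had means of 0.36 and 0.34, and the value of MTHSC70-2 rests on 1 replicate. The gene named HSP70 in RefSeq (AT3G12580) was not called, at 0.46 and 0.17 (adjusted p = 0.0642). The lowest was the mitochondrial mtHsc70-1 (AT4G37910), at -0.14 and -0.30 (adjusted p = 0.0697). HSC70-1 (AT5G02500), the constitutive cytosolic HSP70, carries a description without the words of the rule and is not a member. Its mean was 0.11 (adjusted p = 0.290).

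The 3 HSP90 genes that rose were cytosolic, and their changes were small. HSP90.1 (AT5G52640), the heat-inducible form, had 0.72 and 0.42 (1.48-fold, adjusted p = 0.0183). HSP81-2 and HSP81-3, named after their values were seen, had means of 0.42 and 0.29. These genes are close copies of each other, and how far their probes share targets was not tested. CR88 (AT2G04030), the HSP90 of chloroplasts, was the lowest of the group, with 0.06 and -0.23. Of the HSP100 genes, HSP101 (AT1G74310) rose, with 1.31 and 0.81 (2.09-fold, adjusted p = 0.0106), and AT5G57710 was at -0.05 and -0.09. With 360 min fitted alone, or on the authors' deposited log ratios, none of the HSP70, HSP90 and HSP100 genes passed.

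The DnaJ genes did not move as a group, with a median of -0.01 at 360 min. AT1G71000 had the highest log2 ratio of all members, with 1.75 and 2.1 (3.81-fold, SE 0.08, adjusted p = 0.00125), and it was called under every alternative tried for 360 min. ATERDJ3A (AT3G08970), a J protein of the endoplasmic reticulum, had 1.53 and 1.05 (2.45-fold, adjusted p = 0.00664). AT3G13310 and J3 (AT3G44110), the others of the 4 that rose and named for that reason, had means of 0.87 and 0.41. The 2 that fell were AT4G39960, with -0.19 and -0.39 (1.22-fold lower, adjusted p = 0.0396), and OWL1 (AT2G35720), named for orientation under very low fluences of light, with -0.22 and -0.18 (1.15-fold lower, adjusted p = 0.0453). ATJ6 (AT5G06910), with the lowest value of the group, had -0.30 in its only replicate and missed the threshold (adjusted p = 0.0624). OWL1 was called under 4 of 15 alternatives.

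Among the unclassed genes, AT1G59860 rose most at 360 min, with 1.52 and 0.89 (2.30-fold, adjusted p = 0.0129). AT1G54050 had 1.47 and 0.87 (adjusted p = 0.0121) and AT1G07400 had 1.20 and 0.65 (adjusted p = 0.0171). The remaining pair that rose, named to complete the 5, was AT2G20560, with a mean of 1.12, and AT4G28480, with 0.33. AT4G21870 was the only unclassed gene that fell, by 0.62 on the log2 scale in the only replicate with a value (adjusted p = 0.0131). AT2G20550, the neighbour of AT2G20560, had -0.06 in its only replicate with a value.

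**Figure D2:**
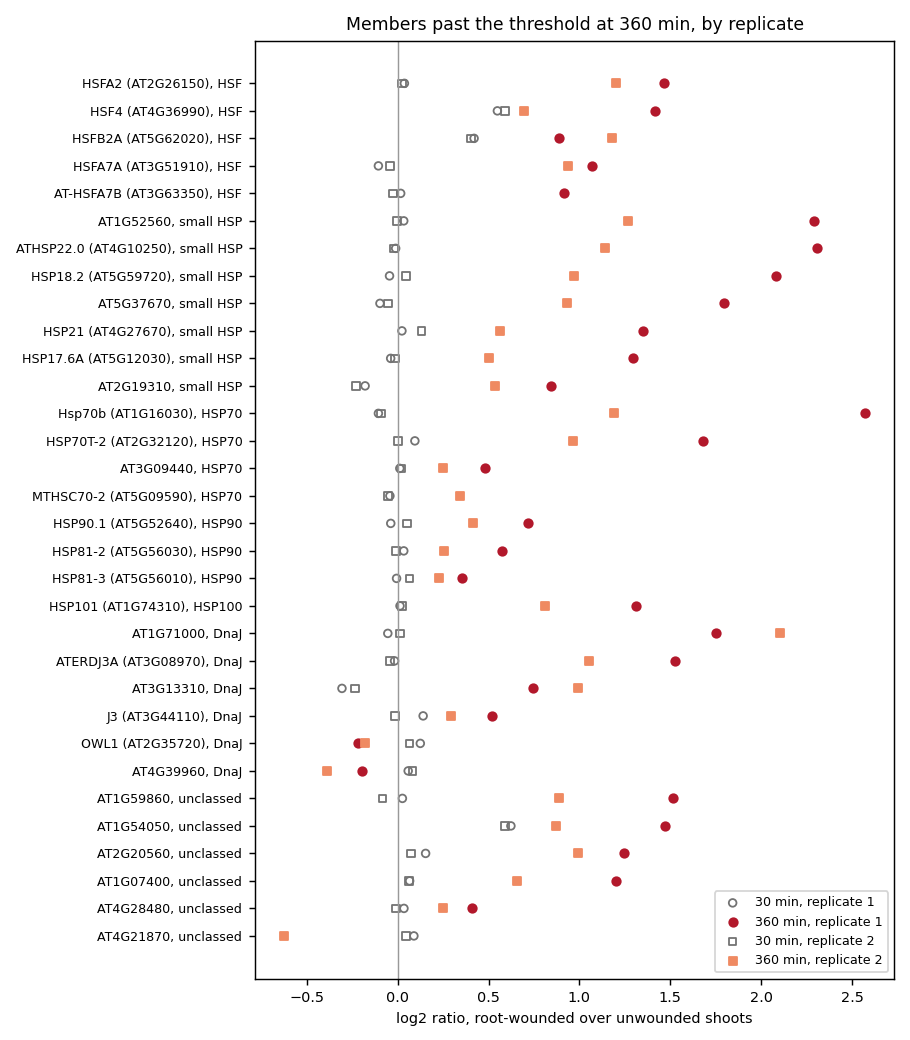
Log2 ratio of wounded over control shoots for the 32 members past the threshold at 360 min, in each replicate. Filled symbols are 360 min and open grey symbols 30 min, with circles for replicate 1 and squares for replicate 2. Most genes lie near 0 at 30 min, where AT1G52560, ATERDJ3A and AT-HSFA7B were not well above background, and in 24 of the 27 that rose with 2 values the circle of replicate 1 lies to the right of the square.

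The 2 replicates of 360 min differed in size. Of the 29 members that rose, 27 had a value in both replicates, and replicate 1 was larger in 24 of these, with a median of 1.31 against 0.89. All 27 had the same sign in both. Measured as levels, the gap lay in the wounded shoots: over the 27 genes the median of replicate 1 minus replicate 2 was 0.44 in wounded shoots, with 20 of 27 higher in replicate 1, and 0.01 in the control shoots, with 14 of 27. Over all genes those medians were -0.09 and -0.10. The arrays of replicate 1 were those with 816 and 888 outlier spots, and the part of these spots in the result was not tested. Each replicate had its own pair of arrays, so the array batch and the replicate cannot be told apart.

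The wound response itself was compared between the times by the contrast of 360 min against 30 min. It was higher at 360 min in 21 members, where 2.56% of all genes were, and lower in 3, where 4.83% were. The highest contrast past the threshold was that of AT1G71000, at 1.95 (adjusted p = 0.0014), followed by AT1G52560 at 1.76 and ATHSP22.0 at 1.74. HSFA2 had 1.30 (adjusted p = 0.00243). J11 and J20 are counted among the 21 because they were low at 30 min, with contrasts of 0.97 and 0.72. The 3 lower ones were AT1G76700 at -0.39, OWL1 at -0.29 and AT4G21870 at -0.69. Leaving out either replicate of 30 min left 3 members past the threshold, and leaving out replicate 2 of 360 min gave 42. Both wound comparisons enter this contrast, so it is no separate evidence of either.

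Many chaperone genes had higher levels at 360 than at 30 min, in unwounded and in wounded shoots. Of 110 members, 35 were higher in unwounded shoots at 360 than at 30 min, 31.8%, where 0.829% of all 19178 genes were. These 35 made up 22.0% of the 159 genes that were higher. Lower were 2 members, J11 and J20, where 0.813% of all genes were. Neither passed with 75th percentile scaling, a normexp offset of 10 or no filter on dim probes. The same held with the control in Cy3 only, in Cy5 only, or with the wounded channels in the same fit. The count of lower members stayed at 2 under other settings, such as no background correction or outlier spots left out. In wounded shoots 42 members were higher at 360 min, where 1.78% of all genes were, and 0 were lower in the limma fit, where 2.37% were, with 2 lower at an unadjusted p under 0.05. Some members entered these counts through their level at 360 min: 80 of the 110 were well above background on all 4 control measurements at 30 min, and all 110 were at 360 min. In a fit added after the data were seen, of genes well above background on all control measurements of both times, 24 of 80 members were higher, where 1.30% of all 14653 genes were, and 2 were lower, where 1.47% were. In the same fit of wounded shoots, 30 of 82 were higher, where 2.60% of 14895 genes were, and 0 were lower, where 3.79% were. The median difference of the members over the full set was 0.30 in unwounded and 0.32 in wounded shoots, against -0.00 and -0.01 for all genes. The levels of the 2 times come from different arrays, and time after the start, time of harvest and array batch cannot be told apart.

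By group, 11 of 15 small heat shock protein genes, 7 of 10 HSP70 genes, 5 of 7 HSP90 genes and 1 of 3 HSP100 genes were higher in unwounded shoots at 360 min, with 3 of 20 HSF genes, 3 of 33 DnaJ genes and 5 of 22 unclassed genes. The medians were 2.25 for small heat shock protein genes, 1.82 for HSP70 and 1.71 for HSP90, 0.17, 0.14 and 0.13 for HSF, DnaJ and unclassed genes, and -0.22 for HSP100. In wounded shoots the medians were 3.00 for small heat shock protein genes, 2.69 for HSP70 and 1.77 for HSP90. Over the members well above background on all control measurements of both times, 5 of 7 small heat shock protein genes, 5 of 7 HSP70 genes, 6 of 6 HSP90 genes and 0 of 1 HSP100 genes were higher, with 3 of 14 HSF genes, 2 of 28 DnaJ genes and 3 of 17 unclassed genes. Their medians were 2.82 for small heat shock protein genes, 1.92 for HSP70, 2.40 for HSP90, 0.19 for HSF, 0.14 for DnaJ and 0.04 for unclassed genes. With the wounded channels in the same fit and the dye pair as a random block, 15 members passed in place of 37. The share of all genes called in that fit is not given here. Without normalization between arrays 74 passed, but then the median of all genes moved to 0.87.

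**Figure D3:**
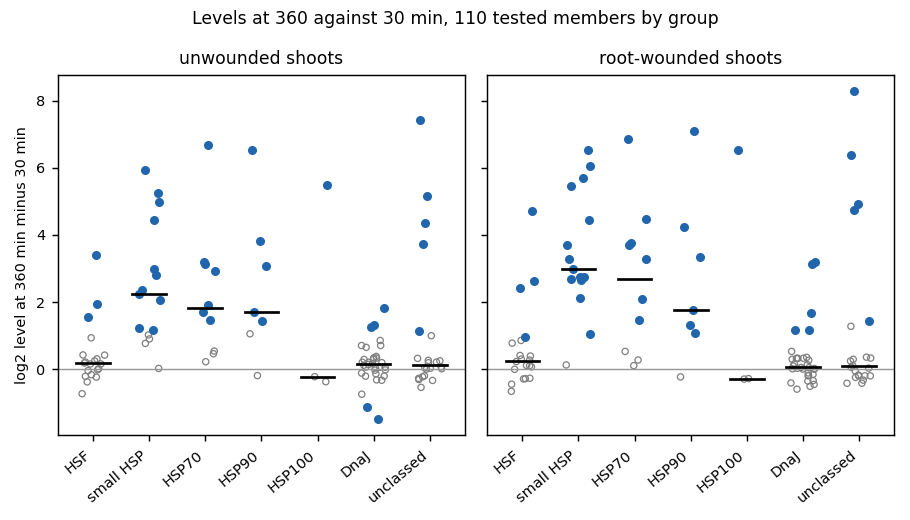
Difference of log2 level between 360 and 30 min in unwounded and in wounded shoots, for each of the 110 tested members by group. Filled points passed the threshold, open points did not, and bars are group medians, which include members that were dim at 30 min. The medians of small heat shock protein, HSP70 and HSP90 genes in unwounded shoots lie at 2.25, 1.82 and 1.71, and those of HSF and DnaJ genes at 0.17 and 0.14.

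AT1G07400 had the highest fitted difference in unwounded shoots, but it passed the filter through the groups of 360 min, so the size is uncertain. Its control level was 6.73 and 6.56 at 30 min and 14.03 and 14.12 at 360 min, a 172-fold difference (log2 7.43, SE 0.22, adjusted p = 6.26e-08), and it was well above background on 3 of 4 control measurements at 30 min. Among members well above background on all control measurements of both times, the HSP70 gene AT3G12580 had the highest. It went from 7.1 and 7.1 to 13.64 and 13.90 (102-fold, adjusted p = 1.16e-07). HSP90.1 went from 7.71 and 7.86 to 14.12 and 14.52 (92.5-fold, adjusted p = 1.69e-07). The differences by wounding at 360 min were much smaller in these genes, with log2 ratios of 0.93 for AT1G07400, 0.31 for HSP70, which was not called, and 0.57 for HSP90.1. HSP101 went from 6.62 and 6.44 to 12.06 and 11.98 (44.8-fold, adjusted p = 2.55e-07), and wounded shoots reached 13.37 and 12.79. It too was well above background on 3 of 4 control measurements at 30 min.

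Of the small heat shock protein genes, AT2G29500 differed by 5.93 on the log2 scale between the unwounded shoots, AT5G51440, described as mitochondrial, by 5.24, and AT1G53540 by 4.97. AT5G51440 was well above background on only 1 of 4 control measurements at 30 min, so its difference is uncertain in size. None of the 3 genes passed the threshold for wounding at 360 min, with ratios of 0.60, 0.45 and 1.11. The level of HSP23.6-MITO was not well above background in any control measurement of 30 min, and at 360 min it was at least 17.5-fold higher, the bound being set against the dimmest signals that were well above background. Among the unclassed genes AT1G59860 differed by 5.16 and AT1G54050 by 4.37. HSFA2 had control levels of 7.27 and 8.54 at 30 min and of 11.34 and 11.28 at 360 min (10.6-fold, adjusted p = 0.000467), so its replicates were wide apart at 30 min but did not overlap between the times.

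Of the 29 members that rose after wounding at 360 min, 24 were also called higher between the unwounded shoots. Of all 110 members 31.8% were, and of all genes 0.829%. The same share among all genes that rose at 360 min was not computed. The others were not called between the unwounded shoots. HSFB2A had control levels of 7.60 and 7.09 at 30 min and of 7.20 and 7.07 at 360 min, a difference of -0.21 with an SE of 0.24 (adjusted p = 0.826). AT3G13310 differed by 0.04 with an SE of 0.22. AT1G52560 and ATHSP22.0, among the highest by wounding, missed the threshold between the unwounded shoots, with ATHSP22.0 at 1.02 (adjusted p = 0.0530) and AT1G52560 at least 1.52-fold higher (adjusted p = 0.0720). The wound comparison of 360 min and the unwounded comparison share the control samples of 360 min.

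**Figure D4:**
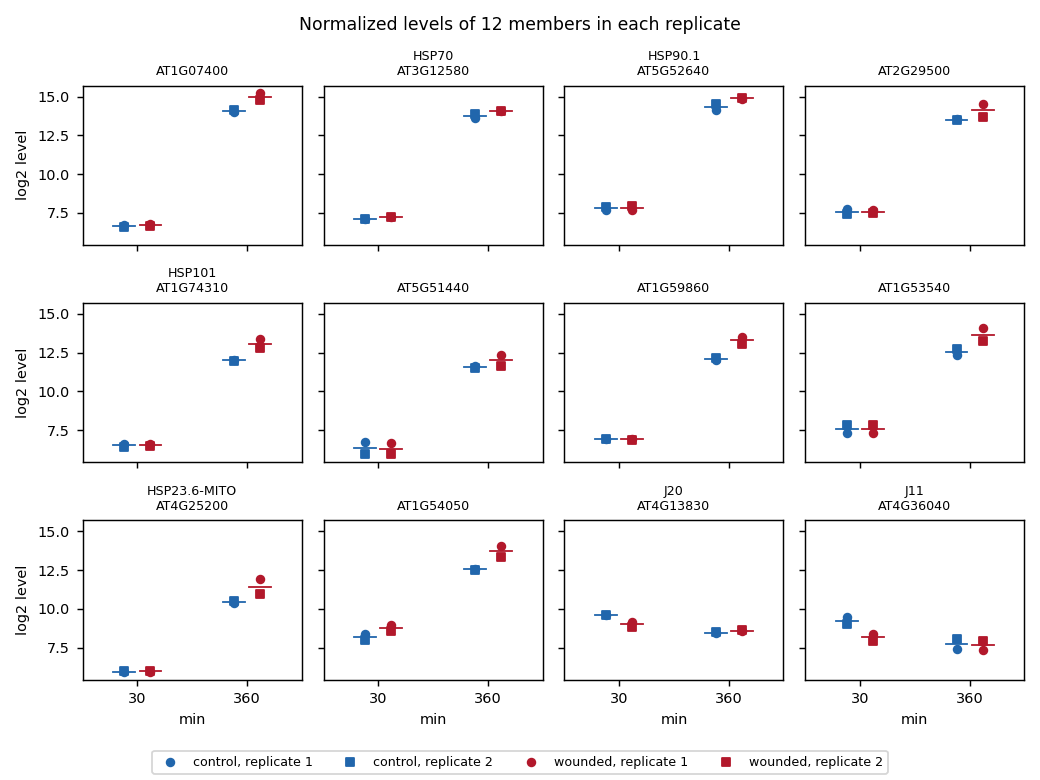
Normalized log2 level in each replicate of the 12 members named by the largest differences between unwounded shoots of 30 and 360 min. They were chosen among members whose control replicates did not overlap between the times. Blue symbols are control and red symbols wounded shoots, with circles for replicate 1, squares for replicate 2 and lines for means. In the first 10 panels both groups stand far higher at 360 min, and in J20 and J11 the control level is lower at 360 min.

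A list of other genes of the heat response, without those words in their description, was read in the same way. Of 19 measured, none passed the limma threshold at 30 min, with 3 at an unadjusted p under 0.05, and 8 rose at 360 min, where 3.08% of all genes did, with a median of 0.30. Those that rose included MBF1C, a coactivator of heat tolerance, at 1.09 (adjusted p = 0.00103), Fes1A, which protects cytosolic HSP70, at 1.05, DREB2A, the factor upstream of HSFA3, at 0.99, and APX2, an ascorbate peroxidase and HSFA2 target, at 0.98. The galactinol synthase genes GolS1 and GolS2 had 1.27 and 0.88, ROF1 0.55 and SGT1A 0.58. Between the unwounded shoots, 10 of the 19 were higher at 360 min, where 0.829% of all genes were, led by Hop3, a co-chaperone that links HSP70 and HSP90, at 5.88. Hop3 was well above background on 3 of 4 control measurements at 30 min, so the size is uncertain. Of 8 genes of folding in the endoplasmic reticulum, BZIP60, a factor of the unfolded protein response, rose at 30 min, where 4.52% of all genes did (0.73, adjusted p = 0.00425), and none passed the limma threshold at 360 min, with 2 at an unadjusted p under 0.05. Between the unwounded shoots 3 of the 8, BIP1, BIP2 and CNX1, were higher at 360 min, by 2.96, 2.58 and 1.53, against the same 0.829% of all genes. Of 6 chaperonin genes none passed after wounding, and the number at an unadjusted p under 0.05 was 0 at each time, while 3 of the 6 were higher between the unwounded shoots, again against 0.829% of all genes, HSP60 by 2.41, Cpn60beta2 by 2.33 and CPN10 by 1.37.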

How the data were processed

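Spots were read with the software Agilent Feature Extraction (version 7.1.1 in the submitters' processing notes). In the deposited scanner files are the mean and local background intensity in both channels, not normalized, and the authors' log10 ratio of red over green with background subtracted and dyes normalized, per the file headers. The series table holds the same deposited log10 ratio, with no difference on any spot, so its scale and direction are those of the scanner files. Its column medians were 0 on 6 of the 8 arrays and -0.00183 and 0.000378 on the others.

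Background was corrected with normexp (offset 50, which pulls folds of dim genes toward 0), arrays were normalized by loess with 1075 control spots and outlier spots at weight 0, and ratios were turned to wounded over control (limma 3.58.1, R 4.3.3). Outlier spots were left out, and a pair with one gave no value. Genes well above background (multiple 2.6, per the file headers) in all 4 measurements of at least 1 condition were kept, 19178 of 21500. limma's lmFit and eBayes were fitted with a coefficient per time (2 residual degrees of freedom, prior 3.58), two-sided. Levels were quantile normalized between arrays on average intensity after loess, with outlier spots kept, and fitted per channel (prior 8.61 for control and 18.3 for wounded channels), so the small p-values of levels rest largely on the prior. No depth in reads applies to arrays, and their number limits the precision. P-values measure the spread between 2 replicates, pooled over both times and with the prior, so 3 calls at 360 min with 1 value rest on the spread at 30 min and the prior.

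Genes were named by a rule. For each wound comparison, the 8 highest and 8 lowest members past the threshold with the same sign in both replicates were taken. For the contrast, the 8 highest and 8 lowest past the threshold were taken whose ratios did not overlap between the times. Between the unwounded shoots, the 10 highest and 5 lowest past the threshold were taken whose control levels did not overlap between the times. The highest and lowest of each group at 360 min were added. So were 13 genes fixed by code, among them HSF1, HSC70-1, HSP21 and HSP17.6A. The members, the lists and the rule were chosen with earlier results of these data known. The replicate numbers are not stated to pair samples across times, and deviations of the same number correlated at -0.03 for ratios and 0.10 for control levels over all genes. The fits were tested on simulated data of 19178 genes: for 360 min, 91.0% of genes changed by 0.5 on the log2 scale and 98.5% of those changed by 1 were recovered, and between unwounded shoots 23.9% of those changed by 1 and 97.0% of those changed by 2. For the contrast of the times 61.2% of those changed by 0.5 were recovered. Among the unchanged genes, 7 to 12 were called per comparison. The simulation drew the spread of each gene from the prior that limma fitted to these data, so the shares depend on that model. It gave a gene the same spread at both times and held no outlier spots. In the data the spread could differ, as in AT1G53540, with an SD of 0.83 at 360 min and 0.006 at 30 min. The shares recovered therefore do not apply to such genes. Alternatives changed background correction, normalization, filter, outlier spots, averaging, prior, block, samples in the fit and values, and a filter on both times was added after the data were seen. No sequences were used.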

Additional observations from a re-analysis of the deposited data

Results flagged for a closer look

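The wound response differed between 360 and 30 min, by the limma contrast at an adjusted p under 0.05, in 17 of the named members. It was higher at 360 min by 1.95 in AT1G71000, 1.76 in AT1G52560, 1.74 in ATHSP22.0, 1.44 in AT5G37670, 1.32 in ATERDJ3A, 1.30 in HSFA2, 1.27 in HSP70T-2, 1.23 in AT1G59860, 1.04 in HSP101, 0.86 in AT1G07400, 0.62 in HSFB2A and 0.56 in HSP90.1 (log2). AT1G52560 and ATERDJ3A were not well above background in either channel at 30 min, so the size of their contrast is uncertain. In J11 and J20 the contrasts of 0.97 and 0.72 come with a lower level in wounded shoots at 30 min and with ratios not past the threshold at 360 min. The contrast was -0.69 in AT4G21870, measured in 1 replicate at 360 min and with a p that rests on the spread at 30 min and the prior, -0.39 in AT1G76700 and -0.29 in OWL1. With 2 replicates a time, no search for single outlying samples was made among the members' values.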

How the results depend on the processing

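A change of sign was counted as a reversal only where the value passed the threshold in either fit, and none was found among the named members. At 30 min the 6 changed members became 10 on the authors' deposited log ratios, 11 with a normexp offset of 10, and 12 with the dye pair as a random block or with 30 min fitted alone, and leaving out a replicate gave 2 to 12. At 360 min the 32 changed members became 7 on the deposited ratios and 4 with 360 min fitted alone, and leaving out a replicate gave 4 to 37. For the contrast of the times, 24 became 10 on the deposited ratios, 14 with outlier spots kept and 45 with the dye pair as a random block, and 3 to 42 without a replicate. Between the unwounded shoots, 37 became 74 without normalization between arrays, 15 with the wounded channels in the fit, and 31 to 41 without a replicate. Scaling each channel to its 75th percentile gave 26, with the median of all genes at -0.20. With the replicate number as a block, a pairing the labels do not state, the counts were 8, 35, 25 and 43. Over the named members at 360 min, 440 of the values under an alternative stayed on their side of the threshold, 91 no longer passed and 23 newly passed. Values that passed in neither fit are among the 440 whether or not their sign changed. The other settings stayed within 1.5 times the main count. The shares of all genes called are not set beside these counts, so they do not tell a change of the members from one of all genes. Leaving out a replicate of a time assumes that the remaining one varies like the other time. With the filter on both times, added after the data were seen, 26 members changed between unwounded shoots and 30 between wounded shoots. The number called under every alternative that gave them a value was 1 at 30 min (J11), 3 at 360 min (AT1G71000, HSFA2, HSFA7A), 2 for the contrast and 15 between the unwounded shoots. Of 110 members, 80 were well above background on all 4 control measurements at 30 min and 110 at 360 min, which limits what could be measured at 30 min.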
